A study of Rattus norvegicus with 26 samples.

Results

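The spinal cord of rats 14 days after a compression injury, 1 week after an intrathecal injection of vehicle, was compared with the cord of intact rats across all genes that passed a filter on low counts. The members were 17990 of the 32883 genes in the count table, measured in 3 libraries of injured, vehicle-treated rats (+PBS-1w) and 4 libraries of intact rats (Intact), out of 26 libraries in the series. All 7 libraries were made by poly(A) RNA sequencing from cord tissue of female, wild-type Sprague-Dawley rats labelled as postnatal day 70. In the +PBS-1w group an aneurysm clip of 60 g had closed on the cord at T10 for 1 min after laminectomy, phosphate-buffered saline was given at the lumbar level 7 days later, and a 5 mm segment at the epicentre was taken 7 days after that. Intact rats are labelled as untreated. Both the injury and the saline therefore separate the groups, and the effect of a laminectomy without a clip was not tested. The study describes the Intact group as intact or sham rats, so that sham-operated rats may be among them. The study's methods give daily cyclosporin A, an inhibitor of T cell activation, to the rats over the experiment, without saying whether Intact rats also received it. The study's methods call the repeats of a condition biological replicates, but the labels do not tie libraries to animals. The p-values therefore measure only the spread between libraries within groups, estimated over all 26 libraries of the series.

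At this stage of a spinal cord lesion, background knowledge places several processes side by side. Axons and neurons at the epicentre have been lost and myelin is being broken down. Microglia and blood-borne macrophages take up the lipid-rich debris, astrocytes form a border around the lesion, and fibroblast-like cells fill its core with matrix. In bulk tissue, fewer cells of a type and less RNA per cell cannot be told apart.

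Levels are given as counts per 1000000 (CPM) after scaling by trimmed mean of M-values (TMM), a difference is a log2 fold change of +PBS-1w against Intact with its standard error (SE), and a gene was called a differentially expressed gene (DEG) when the absolute log2 fold change was above 1 and the Benjamini-Hochberg adjusted p from edgeR was under 0.01. The libraries held 19496602 to 26813098 counts in Intact and 24391212 to 32946100 in +PBS-1w. Of the 17990 genes, 2436 were higher DEGs (13.5%) and 2248 were lower DEGs (12.5%). The median log2 fold change was -0.007 over all genes, 2.03 over the higher DEGs and -1.68 over the lower DEGs. Large differences lay mostly on the higher side, with 511 higher DEGs above 3 and 78 lower DEGs below -3 on the log2 scale. All 3 +PBS-1w libraries lay above all 4 Intact libraries for 2393 of the higher DEGs, against 28.5% of all tested genes, and below them for 2241 of the lower DEGs, against 30.5% of all tested genes.

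Before the genes are described, 3 libraries need to be named because they stand apart in RNA that can come from tissue around the cord. Markers of Schwann cells, which myelinate the nerve roots, held 0.0192, 0.162, 0.0928 and 0.084% of the counts in Intact and 0.0615, 0.0704 and 0.405% in +PBS-1w. Intact replicate 1 thus held the least of them and +PBS-1w replicate 3 the most. Of the list of 9 tested meningeal cell genes, 6 were higher DEGs, and the list held 0.0483 to 0.293% in Intact and 0.148 to 0.86% in +PBS-1w of the counts; +PBS-1w replicate 3 had 0.86% and Intact replicate 1 had 0.0483%. Acta1, the skeletal muscle actin, was at 6.71, 7.19, 4.21 and 160 CPM in Intact and 5.83, 1.31 and 13.7 CPM in +PBS-1w, so that Intact replicate 4 held most of the muscle RNA. Hbb, a haemoglobin chain of red cells, was also highest in that library, at 593 CPM against 27.2 to 262 in the other Intact libraries and 60.2 to 122 in +PBS-1w. Their part in the results below was not tested, and list counts that changed by over 1.5 times without +PBS-1w replicate 3, or without it and Intact replicate 1, are given with and without them.

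Transcripts that neurons use to build axons and to transmit were lower in the cord of vehicle-treated rats. Among 12 tested neuron markers, 9 fell and 3 did not pass, with a median log2 fold change of -1.89. Rbfox3, the nuclear antigen NeuN of mature neurons, was at 76.1, 64, 74.6 and 62.8 CPM in Intact and 15.4, 14.8 and 8.69 CPM in +PBS-1w. Every injured library was below every intact library (log2 fold change -2.42 ± 0.38 SE, adjusted p = 1.75e-05). Snap25, a membrane fusion protein of the nerve terminal, had 1299 ± 262 CPM in Intact (SD, n = 4) and 171 ± 36.8 CPM in +PBS-1w (SD, n = 3) (log2 fold change -2.92 ± 0.58 SE, adjusted p = 2.46e-04). The neurofilaments, which set the calibre of large axons, fell too. Nefl was at 3502, 3622, 3230 and 2976 CPM in Intact and 616, 501 and 279 CPM in +PBS-1w (log2 fold change -2.84 ± 0.53 SE, adjusted p = 1.16e-04). Nefm fell from 3380 ± 297 to 523 ± 272 CPM in mean and Nefh from 2717 ± 226 to 455 ± 191 CPM. Of 9 neurofilament and axon genes, 8 fell and 1 did not pass. Prph, the intermediate filament of peripheral and injured axons, did not pass, with 192, 224, 176 and 161 CPM in Intact and 164, 93.5 and 39.8 CPM in +PBS-1w (log2 fold change -0.93 ± 0.55 SE, adjusted p = 0.162). In all 3 neurofilament genes +PBS-1w replicate 3 was the lowest library. Without that library and Intact replicate 1, 4 of the 9 axon genes and 7 of the 12 neuron markers were still lower DEGs.

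Genes of inhibitory and of excitatory transmission fell. Of 22 tested genes of GABA and glycine transmission, 18 fell and 4 did not pass (median -2.11), and of 20 glutamate transmission genes, 17 fell and 3 did not pass (median -1.99). Without +PBS-1w replicate 3 there were 15 lower DEGs of GABA and glycine transmission, and without Intact replicate 1 as well 11. Slc6a5, the glycine transporter of glycinergic terminals, was at 569.8, 385, 429.6 and 353 CPM in Intact and 67.5, 60.8 and 44.1 CPM in +PBS-1w (log2 fold change -2.92 ± 0.53 SE, adjusted p = 1.05e-04). Gad1 and Gad2, which make GABA from glutamate, had log2 fold changes of -1.87 ± 0.45 and -2.09 ± 0.44, and without +PBS-1w replicate 3 Gad1 was at -1.65 with an adjusted p of 0.0136. On the receptor side, Glra1, the adult glycine receptor subunit, changed by -2.89 ± 0.38 and Gabra5 by -2.91 ± 0.55. Slc12a5, the chloride extruder KCC2 that makes GABA and glycine inhibitory, had 428 ± 46.2 CPM in Intact (SD, n = 4) and 67.5 ± 21.1 CPM in +PBS-1w (SD, n = 3) (log2 fold change -2.66 ± 0.41 SE, adjusted p = 1.68e-05), whereas the chloride importer Slc12a2 (NKCC1) stayed under the fold threshold at -0.79 ± 0.14. The difference between the 2 transporters was not tested.

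Slc17a7, a vesicular glutamate transporter, had the lowest log2 fold change among genes of at least 5 CPM in Intact. It was at 9.22, 23.6, 22.1 and 27.3 CPM in Intact and 1.07, 1.46 and 0.2 CPM in +PBS-1w (log2 fold change -4.48 ± 1.01 SE, adjusted p = 7.75e-04). No injured library came near the lowest intact library, which was Intact replicate 1. Slc17a6, the transporter of most local excitatory neurons, was at 215, 170.4, 196 and 178 CPM in Intact and 31.3, 36.1 and 19.5 CPM in +PBS-1w (log2 fold change -2.71 ± 0.44 SE, adjusted p = 2.86e-05). Grin2c, an NMDA receptor subunit, did not pass at -0.55 ± 0.26.

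Presynaptic and channel genes fell as well. Of 17 presynaptic genes, 15 fell and 2 did not pass (median -2.18), and of 17 channel genes, 15 fell and 2 did not pass (median -2.02). Syt2, the calcium sensor of fast synapses, changed by -3.13 ± 0.40, and Vamp2, a vesicle fusion protein, by -0.78 ± 0.17, the latter under the fold threshold. Scn1a, the sodium channel of fast-spiking and large neurons, was at 313, 246, 337 and 247 CPM in Intact and 30, 28.6 and 24.1 CPM in +PBS-1w (log2 fold change -3.37 ± 0.46 SE, adjusted p = 3.37e-06). The 3 injured libraries differed little from each other in this gene. Scn4b, an accessory sodium channel subunit, changed by -2.81 ± 0.36. Kcna2, a channel placed beside the nodes of myelinated axons, changed by -2.30 ± 0.22 with the smallest adjusted p of the channel list, 2.34e-08.

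Motor neurons and dorsal horn peptides were less uniform. Chat, the enzyme that makes acetylcholine, was at 30.2, 50, 44.4 and 32.9 CPM in Intact and 20.4, 10.1 and 4.12 CPM in +PBS-1w (log2 fold change -1.76 ± 0.42 SE, adjusted p = 0.0012). Slc5a7, the choline transporter, changed by -2.24 ± 0.40, and of 10 motor neuron genes, 5 fell and 5 did not pass, with 3 lower DEGs without +PBS-1w replicate 3. Of the 5 that did not pass, Mmp9, which also marks neutrophils, was the one with a positive value, 1.17 ± 0.74; without Intact replicate 4 it was at 2.91 (adjusted p = 0.00112). Of 13 tested neuropeptides and their receptors, 4 fell and 9 did not pass. Without +PBS-1w replicate 3 or without Intact replicate 1 the lower DEGs were 2. The lower ones were Tac3, Tacr1, Tacr3 and Oprm1, the last being the mu opioid receptor (log2 fold change -2.65 ± 0.60 SE, adjusted p = 8.34e-04). Tac3 and Tacr1, the neurokinin B precursor and the substance P receptor, were close to the threshold: Tac3 passed in none of the 7 fits that left out a library (adjusted p 0.0107 to 0.0484), and Tacr1 did not without Intact replicate 1 (adjusted p = 0.0129) or +PBS-1w replicate 3 (adjusted p = 0.0166). Leaving out +PBS-1w replicate 1 moved Chat to -2.47. Penk, the enkephalin precursor, was at 122, 98.1, 118 and 120 CPM in Intact and 69.3, 72.5 and 35.8 CPM in +PBS-1w (log2 fold change -0.95 ± 0.53 SE, adjusted p = 0.135), with no overlap between the groups but a wide spread among injured libraries. Of 14 genes on the list of serotonin and other monoamine receptors, 10 fell and 1 rose, and without +PBS-1w replicate 3 there were 6 lower DEGs. The 10 include Chrm2, which is a muscarinic acetylcholine receptor and not a monoamine receptor, at -2.65 ± 0.39. Htr2c, a serotonin receptor of motor neurons, was at 226, 169, 174 and 152 CPM in Intact and 29, 36.4 and 21.8 CPM in +PBS-1w (log2 fold change -2.63 ± 0.53 SE, adjusted p = 2.93e-04). The higher one was Htr2b, another serotonin receptor, at 0.655, 0.641, 0.509 and 0.836 CPM in Intact and 26.8, 18.9 and 25.6 CPM in +PBS-1w (log2 fold change 5.15 ± 0.29 SE, adjusted p = 3.64e-11). The injured libraries lay far above all intact ones.

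The genes with the lowest log2 fold changes among those of at least 5 CPM in Intact were partly on these lists. Slc17a7 and Hapln1 led them, and Car7, a carbonic anhydrase of neurons, was at 12, 8.11, 8.23 and 9.2 CPM in Intact and 0.684, 0.821 and 0.64 CPM in +PBS-1w (log2 fold change -3.71 ± 0.69 SE, adjusted p = 1.25e-04). Pvalb, the calcium buffer of fast-spiking neurons and of muscle, was at 85, 66.6, 74 and 73.3 CPM in Intact and 7.22, 8.17 and 6.72 CPM in +PBS-1w (log2 fold change -3.34 ± 0.68 SE, adjusted p = 3.02e-04), with even levels inside each group although Intact replicate 4 held more muscle RNA. Col19a1, a collagen, changed by -3.56 ± 0.68, and Ndst4, which modifies heparan sulfate, by -3.29 ± 0.34.

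Genes that neurons switch on after injury rose in part. Atf3, a transcription factor of axotomised neurons and stressed cells, was at 1.91, 2.7, 1.39 and 2.09 CPM in Intact and 55.2, 42.6 and 71.5 CPM in +PBS-1w (log2 fold change 4.80 ± 0.39 SE, adjusted p = 3.05e-09). Sprr1a, a protein of regrowing axons, was listed at 0 in 3 intact libraries and at 0.0546 CPM in the fourth, and at 4.49, 1.83 and 0.841 CPM in the +PBS-1w libraries (log2 fold change 7.22 ± 1.10 SE, adjusted p = 1.38e-05). Its fitted fold rests on few counts in Intact and was 9.07 without Intact replicate 1 and 6.38 without +PBS-1w replicate 1. Gap43, the growth cone protein, was at 125, 116, 111 and 111 CPM in Intact and 230.1, 167 and 84.2 CPM in +PBS-1w and did not pass (log2 fold change 0.47 ± 0.26 SE, adjusted p = 0.139). Of 11 such genes, 6 rose and 5 did not pass. Of 10 early response genes, 6 rose, among them Junb at 2.58 ± 0.24, while Arc, which neurons induce with synaptic activity, fell from 8.17 ± 0.881 to 2.08 ± 0.422 CPM in mean (log2 fold change -1.97 ± 0.39 SE, adjusted p = 2.66e-04).

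Myelin transcripts fell, with the Intact libraries close together and the injured ones spread. Of 14 tested central myelin and oligodendrocyte markers, 8 fell and 6 did not pass, with a median of -1.20. Mbp, a structural protein of compact myelin, was at 32980, 34570, 31210 and 35080 CPM in Intact and 11300, 17880 and 6398 CPM in +PBS-1w (log2 fold change -1.50 ± 0.29 SE, adjusted p = 1.97e-04). Cldn11, the tight junction protein of myelin, did not pass, at 1193, 1249, 1100 and 1371 CPM in Intact and 1100, 1655 and 1409 CPM in +PBS-1w (log2 fold change 0.18 ± 0.17 SE, adjusted p = 0.41). Among the injured libraries, replicate 2 held the most and replicate 3 the least Mbp, and without +PBS-1w replicate 3 the count of lower DEGs was 6. Of 10 precursor markers, 1 rose and the others did not pass, beside 13.5% higher DEGs over all genes. It was Pdgfra, which fibroblasts also express (log2 fold change 1.14 ± 0.33 SE, adjusted p = 0.00568). Pdgfra did not pass without +PBS-1w replicate 3 (0.78, adjusted p = 0.0731) or without Intact replicate 1 (adjusted p = 0.0153), 2 (0.0123) or 4 (0.0105).

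Every enzyme of the list for cholesterol synthesis fell. All 17 tested genes were lower DEGs, with a median log2 fold change of -2.32 and a range of -3.33 to -1.38. This pathway builds sterol from acetyl-CoA through mevalonate and squalene, and in the adult nervous system oligodendrocytes and astrocytes make the sterol of myelin locally. Hmgcs1, which makes the precursor of mevalonate, was at 987, 1065, 782 and 787 CPM in Intact and 78.2, 114 and 77.9 CPM in +PBS-1w (log2 fold change -3.33 ± 0.30 SE, adjusted p = 1.23e-08). Further along the pathway, Fdft1, which makes squalene, was at 254, 255, 219 and 224 CPM in Intact and 39.8, 44.4 and 37.5 CPM in +PBS-1w (log2 fold change -2.55 ± 0.21 SE, adjusted p = 3.01e-09). Sqle, which turns squalene into an epoxide, changed by -2.18 ± 0.18, and Cyp51, which removes a methyl group of lanosterol, by -2.44 ± 0.25. At the end of the pathway Dhcr7 changed by -1.63 ± 0.34. Insig1, a sterol-responsive brake on the pathway, fell from 252 ± 27.6 to 45.9 ± 4.06 CPM. All 17 genes lay below Intact in every +PBS-1w library, as did 30.5% of all tested genes. Without +PBS-1w replicate 3 and Intact replicate 1, 16 of the 17 were lower DEGs.

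These genes were also frequent among the 8 lower DEGs with the smallest p, of which Msmo1, Sc5d, Nsdhl, Fdft1 and Hsd17b7 are enzymes of the list, and Acat2, which makes the first intermediate of the mevalonate route, was at 81.3, 82.5, 69.3 and 75.3 CPM in Intact and 11.9, 13.3 and 12.2 CPM in +PBS-1w (log2 fold change -2.63 ± 0.19 SE, adjusted p = 5.95e-10). The other two were Fam151a, at -1.60 ± 0.13, and AABR07064804.1, a locus without a gene name, at -1.21 ± 0.10.

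Of the phagocyte list, 3 genes of sterol transport rose; they were picked from that list after their values were seen, and export itself was not measured. Abca1, which moves cholesterol out of cells, was at 39.7, 56.3, 51.2 and 83.5 CPM in Intact and 864, 672 and 825 CPM in +PBS-1w (log2 fold change 3.77 ± 0.30 SE, adjusted p = 2.99e-09), and Abcg1, a second exporter, changed by 1.39 ± 0.18. Apoe, the main lipid carrier of the nervous system, was at 2805, 2776, 2433 and 2751 CPM in Intact and 25970, 20400 and 36700 CPM in +PBS-1w (log2 fold change 3.36 ± 0.23 SE, adjusted p = 3.91e-10). It went from 1731 to 17810 RPKM, a level per kilobase of transcript, and was the most abundant transcript per length among the nuclear genes of +PBS-1w, where Mbp held that rank in Intact. The sum of all gains in level between the group means was 26.7% of the scaled counts, and Apoe alone made up 9.38% of that gain. After Apoe, the largest gains in CPM were those of Ctsb, Gpnmb, Ctsd and Psap, all genes of lysosomes or of lipid-loaded macrophages. Mbp made up 6.43% of the losses, followed by Mt-co1, a mitochondrial subunit of cytochrome oxidase that went from 25100 ± 2466 (SD, n = 4) to 14440 ± 1969 CPM (SD, n = 3). These genes with the largest gains and losses were chosen after their values were seen.

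**Figure D1:**
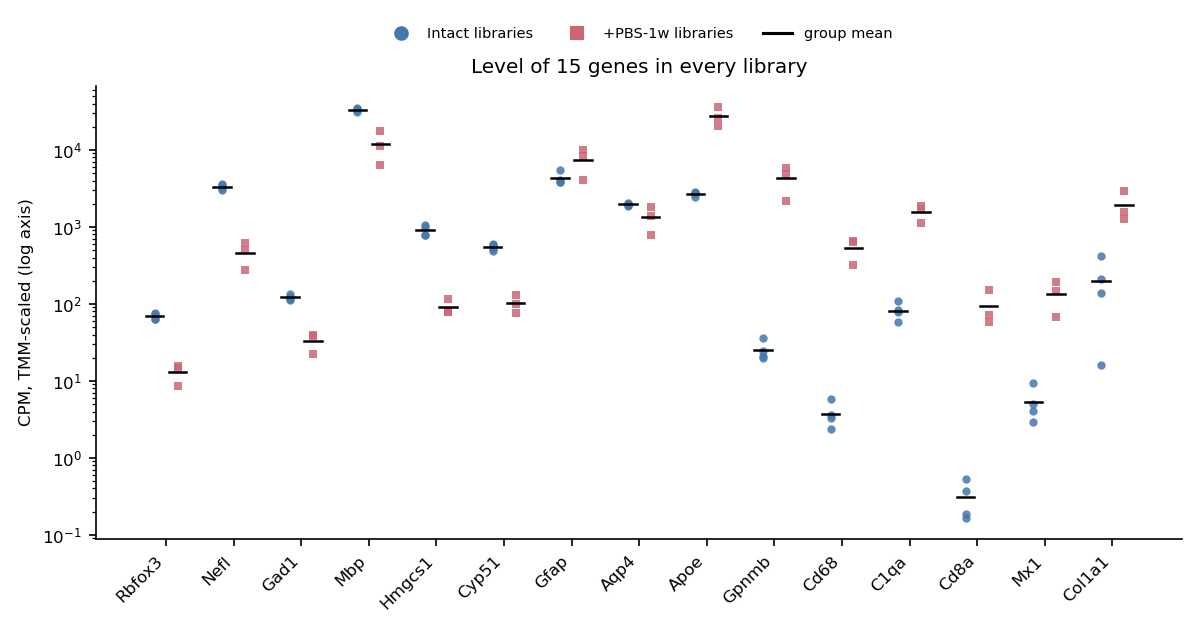
Level of 15 genes in each of the 4 Intact libraries (blue circles) and 3 +PBS-1w libraries (red squares), in TMM-scaled CPM on a log axis, with a line at each group mean. Neuronal, myelin and sterol genes lie lower in +PBS-1w. Phagocyte, complement, Cd8a, Mx1 and Col1a1 points lie higher there, whereas Gfap overlaps between the groups. Aqp4 lies below Intact in every +PBS-1w library without passing the thresholds.

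Macrophage and microglia transcripts rose, with the highest median of all 44 lists. Of 19 tested phagocyte and foamy macrophage genes, 18 rose and 1 did not pass, with a median of 3.77. Gpnmb, a glycoprotein of lipid-loaded macrophages, was at 20.1, 20.8, 24.2 and 36.1 CPM in Intact and 4826, 2151 and 5891 CPM in +PBS-1w (log2 fold change 7.40 ± 0.41 SE, adjusted p = 3.31e-11). Cd68, a membrane protein of macrophage lysosomes, was at 2.4, 3.3, 3.56 and 5.82 CPM in Intact and 629, 318 and 655 CPM in +PBS-1w (log2 fold change 7.13 ± 0.40 SE, adjusted p = 3.58e-11). In both genes the lowest injured library was far above the highest intact one. Clec7a, a receptor for glucans on activated phagocytes, changed by 6.13 ± 0.35, and Msr1, a scavenger receptor, by 5.52 ± 0.49. Fabp4, a fatty acid carrier of macrophages and fat cells, was at 0.109, 0.0916, 0.37 and 2.85 CPM in Intact and 53.3, 6.49 and 56.2 CPM in +PBS-1w (log2 fold change 5.39 ± 0.97 SE, adjusted p = 8.90e-05), so that +PBS-1w replicate 2 lay well below the other two injured libraries; without Intact replicate 4 the log2 fold change was 7.61. Cd163, the haemoglobin scavenger receptor, did not pass, at 1.47, 4.03, 11.7 and 7.83 CPM in Intact and 19.3, 12.8 and 9.33 CPM in +PBS-1w (log2 fold change 1.14 ± 0.61 SE, adjusted p = 0.125).

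Several of the higher DEGs with the smallest p lay outside these lists. Unc93b1, which carries nucleic acid-sensing receptors to endosomes, had the smallest p, at 16, 21.1, 20.1 and 26.2 CPM in Intact and 243, 209.5 and 224 CPM in +PBS-1w (log2 fold change 3.43 ± 0.16 SE, adjusted p = 1.90e-11). Lpxn, an adhesion adaptor of leukocytes, was at 4.97, 4.99, 6.15 and 5.74 CPM in Intact and 35.7, 31.1 and 35 CPM in +PBS-1w (log2 fold change 2.63 ± 0.14 SE, adjusted p = 3.31e-11). The 3 injured libraries were close to each other in both genes. Among the largest folds of genes reaching 5 CPM, Ifitm1, an interferon-induced membrane protein, was at 0.491, 2.38, 1.76 and 1.86 CPM in Intact and 212, 218 and 573 CPM in +PBS-1w (log2 fold change 7.66 ± 0.50 SE, adjusted p = 2.01e-10), or 7.02 without +PBS-1w replicate 3. AABR07030791.1 was at 0, 0.0916, 0.0463 and 0.038 CPM in Intact and 28.1, 12.3 and 22.3 CPM in +PBS-1w (log2 fold change 8.71 ± 2.15 SE, adjusted p = 0.00174), or 9.30 without Intact replicate 2, and AABR07073350.1, like it a locus listed without a gene name, at 0.0546, 0, 0.139 and 0.114 CPM in Intact and 2.71, 2.2 and 57.6 CPM in +PBS-1w (log2 fold change 7.95 ± 1.55 SE, adjusted p = 1.97e-04), where +PBS-1w replicate 3 carried the mean; without that library the latter was at 4.88.

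Markers of resident, homeostatic microglia did not fall. Of 11 tested, 9 rose and 2 did not pass (median 1.66). P2ry12, a purinergic receptor that resting microglia use to sense damage, was at 20.9, 16.1, 24.9 and 27.6 CPM in Intact and 58.5, 67.8 and 29.3 CPM in +PBS-1w (log2 fold change 1.21 ± 0.24 SE, adjusted p = 2.38e-04), and Tmem119 at 26.7, 30.1, 26.2 and 37.1 CPM in Intact and 83.7, 92.8 and 38.1 CPM in +PBS-1w (log2 fold change 1.25 ± 0.23 SE, adjusted p = 1.26e-04). In both, +PBS-1w replicate 3 was close to the highest intact library, and without +PBS-1w replicate 2 P2ry12 was at 0.97, under the fold threshold. Selplg, an adhesion ligand of microglia and leukocytes, was at 0.30 ± 0.20 and did not pass. The factor by which Cd68 differed (log2 7.13) was above that of any homeostatic marker, the highest of which was Olfml3 at 2.52, or 1.63 without +PBS-1w replicate 3. The difference between the lists was not tested.

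Lysosomal genes were split within the list. Of 20, 14 rose and 6 did not pass, with a median of 2.18. Ctsb and Ctsd, abundant cathepsin proteases, changed by 3.13 ± 0.18 and 3.17 ± 0.22. Ctsd was at 440.2, 525, 520 and 541 CPM in Intact and 6030, 3161 and 4497 CPM in +PBS-1w. Ctsk, a collagen-degrading cathepsin, was at 2.56, 10.4, 19.1 and 47.9 CPM in Intact and 195, 120.5 and 377 CPM in +PBS-1w (log2 fold change 3.52 ± 0.59 SE, adjusted p = 4.08e-05), with a wide spread among intact libraries, and was 4.42 without Intact replicate 4. Gaa, which breaks down glycogen, was at 0.39 ± 0.18 and did not pass. Npc2, the soluble sterol carrier of the lysosome, was at 194, 211, 191 and 187 CPM in Intact and 1637, 1210 and 1420 CPM in +PBS-1w (log2 fold change 2.86 ± 0.20 SE, adjusted p = 4.60e-10). Grn, the lysosomal growth factor progranulin, and Dnase2, the lysosomal nuclease, stood among the 8 higher DEGs with the smallest p, at 3.93 ± 0.21 and 3.55 ± 0.18.

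The palindrome TCACGTGA, the site bound by factors that switch on lysosomal genes, was searched on both strands in the 300 bases from 250 before to 50 after the start of transcription (RefSeq, GRCr8). It was in the promoters of 3 of the 14 lysosomal genes with a sequence, 21.4%, against 0.777% of all 33469 promoters. Those were Ctsd, Lamp1 and Mcoln1, and only Ctsd of them was a DEG. The stretches upstream of Ctsd (chr1:206968822-206968852, minus strand) and Lamp1 (chr16:83075075-83075149, minus strand, log2 fold change 0.88 ± 0.12) are shown because they place the same letters before a gene that rose and before one under the fold threshold (1.02 and called without Intact replicate 2), with the motif in capitals.
Ctsd: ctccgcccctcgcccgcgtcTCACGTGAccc
Lamp1: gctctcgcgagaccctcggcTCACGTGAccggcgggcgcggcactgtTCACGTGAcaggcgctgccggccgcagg
The motif TCACCCCAC, one form of the sterol response element, was in none of the 12 cholesterol synthesis promoters with a sequence and in 0.484% of all promoters.

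Genes of the complement system, which tags debris and synapses for uptake, rose. All 15 tested genes were higher DEGs, with a median of 3.47. The 3 chains of C1q, which start the classical pathway, were nearly parallel. C1qa was at 58, 84.2, 78 and 108 CPM in Intact and 1887, 1694 and 1137 CPM in +PBS-1w (log2 fold change 4.26 ± 0.31 SE, adjusted p = 6.92e-10), C1qb changed by 4.44 ± 0.28 and C1qc by 4.86 ± 0.33. C3, the component on which all pathways meet, was at 135, 217, 133 and 249.8 CPM in Intact and 442, 1608 and 295 CPM in +PBS-1w (log2 fold change 2.09 ± 0.54 SE, adjusted p = 0.00261), with +PBS-1w replicate 2 far above the other two; it did not pass without that library (1.00, adjusted p = 0.103) or without Intact replicate 3 (adjusted p = 0.0102). C4a and C4b are near-identical copies, so reads may be split between them. They changed by 3.60 ± 0.29 and 3.27 ± 0.52. Among regulators, Serping1, the C1 inhibitor, changed by 3.47 ± 0.37.

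All 12 tested genes of inflammasomes and lytic cell death were higher DEGs. Ninj1, which ruptures the plasma membrane of dying cells, had the third smallest p of the higher DEGs. It was at 19.4, 22.4, 23.1 and 24.3 CPM in Intact and 118, 127 and 114 CPM in +PBS-1w (log2 fold change 2.43 ± 0.12 SE, adjusted p = 2.20e-11). Nlrp3, the sensor of the best known inflammasome, changed by 2.36 ± 0.24, its adaptor Pycard by 2.62 ± 0.29, and the pore-forming Gsdmd by 1.88 ± 0.16. Ripk3 and Mlkl, which carry out necroptosis, changed by 3.45 ± 0.29 and 3.44 ± 0.32. Il1b, the cytokine that inflammasomes release, was at 0.437, 0.825, 0.278 and 0.76 CPM in Intact and 1.04, 11.3 and 1.76 CPM in +PBS-1w (log2 fold change 3.0 ± 0.71 SE, adjusted p = 0.00119). The highest library was +PBS-1w replicate 2, the other two injured libraries were close to the intact range, and without that library it was at 1.26 (adjusted p = 0.0985). Il18 was even, at 9.39, 7.42, 11.2 and 9.54 CPM in Intact and 37.9, 30.6 and 34.8 CPM in +PBS-1w (log2 fold change 1.87 ± 0.16 SE, adjusted p = 5.77e-09).

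Chemokines and interferon-stimulated genes rose. Of 18 tested chemokines and cytokines, 15 rose and 3 did not pass (median 3.35). Ccl2, the main attractant of monocytes, was at 0.109, 0.596, 0.555 and 0.722 CPM in Intact and 7.61, 9.4 and 12.1 CPM in +PBS-1w (log2 fold change 4.24 ± 0.53 SE, adjusted p = 1.13e-06). Cxcl16 changed by 3.34 ± 0.31 and Tgfb1, which drives scar matrix, by 2.99 ± 0.20. Cxcl13, an attractant of B cells, was at 0.6, 1.6, 2.08 and 1.14 CPM in Intact and 4.99, 189.5 and 6.08 CPM in +PBS-1w (log2 fold change 5.61 ± 0.98 SE, adjusted p = 6.59e-05), so that 1 library carried the mean, and without it the log2 fold change was 2.02. Cxcr1, a receptor for neutrophil-attracting chemokines, had no count in any intact library and 410 counts over the +PBS-1w libraries, at 3.21, 1.16 and 10.8 CPM. With 3 counts over the group as the floor, its level was at least 151-fold higher, a bound that covers counting error only, and 72.1-fold without +PBS-1w replicate 3, which held the most.

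Of 17 tested interferon-stimulated genes, 16 rose and 1 did not pass, with a median of 2.53. Mx1, an antiviral GTPase, was at 2.89, 4.99, 4.02 and 9.46 CPM in Intact and 68.5, 147 and 189.9 CPM in +PBS-1w (log2 fold change 4.64 ± 0.54 SE, adjusted p = 4.00e-07). Irf7, the factor that amplifies the interferon response, was at 6.38, 18.6, 9.57 and 12.2 CPM in Intact and 61.6, 123 and 151 CPM in +PBS-1w (log2 fold change 3.25 ± 0.49 SE, adjusted p = 1.25e-05). In both, replicate 1 was the lowest and replicate 3 the highest of the injured libraries. Gbp2 and Oasl, both interferon-induced antiviral proteins, changed by 3.15 ± 0.29 and 3.75 ± 0.43. Stat2, a subunit of the complex that binds these promoters, was at 0.95 ± 0.14, just under the fold threshold, and was the member that did not pass; without Intact replicate 2 or +PBS-1w replicate 1 it was at 1.09 and passed.

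The interferon response element was written as GAAANNGAA and searched on both strands. It was in 8 of the 13 interferon-stimulated promoters with a sequence, 61.5%, against 9.71% of all 33469 promoters. No match was in the promoters of Stat2, Irf1, Mx1, Oasl and Irf9. All of these but Stat2 were higher DEGs, and Mx1 and Oasl had the largest log2 fold changes of the list. The stretches below lie upstream of genes that rose, and capitals mark the motif on either strand; in Oas1a and Bst2 a pair of matches overlap.
Oas1a (chr12:41330405-41330459, plus strand): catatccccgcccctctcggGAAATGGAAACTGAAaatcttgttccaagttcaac
Bst2 (chr16:18255064-18255118, minus strand): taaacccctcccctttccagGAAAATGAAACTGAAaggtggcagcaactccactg
Ifit3 (chr1:241527263-241527325, plus strand): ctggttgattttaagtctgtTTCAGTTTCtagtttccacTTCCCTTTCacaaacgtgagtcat
Irf7 (chr1:205800063-205800111, minus strand): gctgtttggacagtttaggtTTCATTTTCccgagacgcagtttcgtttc
Gbp2 (chr2:234005677-234005725, plus strand): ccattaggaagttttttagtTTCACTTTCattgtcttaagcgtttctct
Oas1a, which makes the activator of an antiviral RNase, changed by 2.53 ± 0.42, Bst2, which tethers virus to cells, by 2.47 ± 0.34, and Ifit3 by 2.86 ± 0.41. A match is only a description of letters in these windows, and binding was not measured.

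Class I antigen presentation genes rose, while few class II genes passed (2 of 11, beside 13.5% higher DEGs over all genes). The class II median was nonetheless 1.87, and every class II log2 fold change was positive (0.62 to 3.75). The difference between the classes was not tested. Of 11 tested class I genes, 10 rose and 1 did not pass (median 2.11). B2m, the light chain of class I, was at 393, 416, 465 and 516 CPM in Intact and 1755, 1684 and 2341 CPM in +PBS-1w (log2 fold change 2.11 ± 0.19 SE, adjusted p = 1.37e-08), and Psmb8, a subunit of the immunoproteasome, changed by 3.21 ± 0.37. RT1-A1, RT1-A2 and RT1-CE10 are near-identical rat class I heavy chains, so the split of reads between them is uncertain; RT1-CE10, at 1.71 ± 0.71, was the one that did not pass. Of 11 class II genes, 2 rose: Cd86, a co-stimulatory ligand (log2 fold change 3.70 ± 0.25 SE, adjusted p = 3.46e-10), and Ctss, the cathepsin that trims the class II chaperone (log2 fold change 2.28 ± 0.21 SE, adjusted p = 1.39e-08). The class II chains themselves did not pass. Cd74, that chaperone, was at 24.9, 63.6, 82.3 and 81.6 CPM in Intact and 144, 122 and 291 CPM in +PBS-1w (log2 fold change 1.56 ± 0.68 SE, adjusted p = 0.058). RT1-Da, a class II alpha chain, was at 2.89, 12.5, 22.4 and 17.3 CPM in Intact and 35.4, 37.9 and 78.6 CPM in +PBS-1w (log2 fold change 1.87 ± 0.69 SE, adjusted p = 0.0272). RT1-DMb, which loads peptides onto class II, was at 0.928, 0.0458, 0.0463 and 0.228 CPM in Intact and 9.96, 1.46 and 0.601 CPM in +PBS-1w, with replicate 1 the highest in both groups, and it passed without Intact replicate 1 (5.18, adjusted p = 0.00728) or +PBS-1w replicate 3 (4.25, adjusted p = 0.00938), and was at 1.78 (adjusted p = 0.269) without +PBS-1w replicate 1, against 3.75 ± 1.24 with all libraries. RT1-CE10 passed without Intact replicate 4, at 2.73. The pattern of RT1-DMb was not confined to this gene, since 337 genes were highest in the replicate 1 library of all 8 groups of the series, and 21 of the 4684 DEGs were highest or lowest there in all 8.

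Markers of T cells rose, and the tested ones of B and plasma cells did not pass. Of 15 tested, 9 rose and 6 did not pass. Cd3e, a chain of the T cell receptor complex, was at 0, 0, 0.185 and 0.19 CPM in Intact and 2.38, 3.21 and 2.52 CPM in +PBS-1w (log2 fold change 4.69 ± 0.88 SE, adjusted p = 1.42e-04). Cd8a, the coreceptor of cytotoxic T cells that rat macrophages and natural killer cells can also carry, was at 0.164, 0.366, 0.185 and 0.532 CPM in Intact and 57.6, 154 and 72.8 CPM in +PBS-1w (log2 fold change 8.16 ± 0.52 SE, adjusted p = 1.45e-10). Cd8b, its partner chain, was at 0.0546, 0.183, 0.0463 and 0.114 CPM in Intact and 17.2, 30.2 and 28.1 CPM in +PBS-1w (log2 fold change 7.88 ± 0.42 SE, adjusted p = 3.05e-11) and had one of the 8 smallest p of the higher DEGs. Per length, Cd8a stood at 68.2 RPKM and Cd8b at 17.1 RPKM in +PBS-1w, against 1.8 RPKM for Cd3e, 2.01 for Cd3d and 4.05 for Cd3g. Cd4, the coreceptor of helper T cells that rat macrophages and microglia also express, was at 20.4, 26.3, 29.4 and 24.2 CPM in Intact and 163, 254 and 154 CPM in +PBS-1w (log2 fold change 2.93 ± 0.33 SE, adjusted p = 3.07e-07). Without +PBS-1w replicate 3 and Intact replicate 1, 1 member of the list was a lower DEG. Foxp3, the factor of regulatory T cells, was at 0.45 ± 0.30 and Jchain, the joining chain of antibodies from plasma cells, at 0.44 ± 0.77, or 1.84 (adjusted p = 0.0456) without Intact replicate 4; neither passed. With the few counts in Intact, Cd3d was at 4.10 ± 0.82 and at 5.45 without Intact replicate 2, and Cd3e at 5.30 without Intact replicate 4. Fcrl2, an Fc receptor-like gene, was at 0.164, 0.458, 0.601 and 0.304 CPM in Intact and 204, 276 and 87.8 CPM in +PBS-1w (log2 fold change 8.92 ± 0.79 SE, adjusted p = 9.74e-09), the third largest fold among genes of at least 5 CPM in the higher group. Neutrophil and monocyte markers were mostly not past the thresholds, with 2 of 10 higher, beside 13.5% higher DEGs over all genes. S100a8, an abundant neutrophil protein, was at 2.62, 13.1, 5.64 and 42.3 CPM in Intact and 27.3, 38.1 and 4.8 CPM in +PBS-1w (log2 fold change 0.55 ± 0.89 SE, adjusted p = 0.629), with Intact replicate 4 the highest library of all, and 1.71 without it.

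Among astrocyte genes, reactive ones mostly rose and most homeostatic ones did not pass. Of 13 tested reactive genes, 12 rose and 1 did not pass (median 2.40). Gfap, the filament protein that defines reactive astrocytes, was the exception, at 3868, 5415, 3795 and 4057 CPM in Intact and 8341, 9904 and 4018 CPM in +PBS-1w (log2 fold change 0.79 ± 0.28 SE, adjusted p = 0.0207), and +PBS-1w replicate 3 lay within the intact range. Without that library Gfap was at 1.09 (adjusted p = 0.00211) and all 13 were higher DEGs. Vim, a second filament that macrophages and fibroblasts also make, was at 89.4, 336, 372 and 304 CPM in Intact and 2139, 1958 and 3596 CPM in +PBS-1w (log2 fold change 3.22 ± 0.33 SE, adjusted p = 9.50e-08). Lcn2, an iron-binding protein of reactive astrocytes and neutrophils, changed by 3.35 ± 0.76, with 3.94 without Intact replicate 4 and 2.58 without +PBS-1w replicate 2, and Timp1, an inhibitor of metalloproteinases, by 3.99 ± 0.31. Stat3, which drives border formation, was at 124, 146, 137 and 139 CPM in Intact and 292, 291 and 279.9 CPM in +PBS-1w (log2 fold change 1.08 ± 0.10 SE, adjusted p = 1.62e-08). Of 14 homeostatic genes, 1 rose, 3 fell and 10 did not pass, beside 13.5% higher and 12.5% lower DEGs over all genes. Their median was -0.77. In every +PBS-1w library 9 of the 14 lay below Intact and 3 above, against 30.5% and 28.5% of all tested genes. Slc1a2, the main glutamate transporter, was at 309.7, 210.3, 297 and 208 CPM in Intact and 104, 107 and 33.4 CPM in +PBS-1w (log2 fold change -1.65 ± 0.39 SE, adjusted p = 0.0012), and Kcnj10, the potassium channel that clears potassium, changed by -2.02 ± 0.29. Aqp4, the water channel of astrocyte endfeet, was at 2063, 2010, 1890 and 1949 CPM in Intact and 1392, 1828 and 788 CPM in +PBS-1w (log2 fold change -0.57 ± 0.25 SE, adjusted p = 0.058), and Glul, which turns glutamate into glutamine, at 0.18 ± 0.11. Gjb2 was the higher one (log2 fold change 2.61 ± 0.62 SE, adjusted p = 0.00125); meningeal cells express it too, and it was at 1.29 (adjusted p = 0.0665) without +PBS-1w replicate 3.

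**Figure D2:**
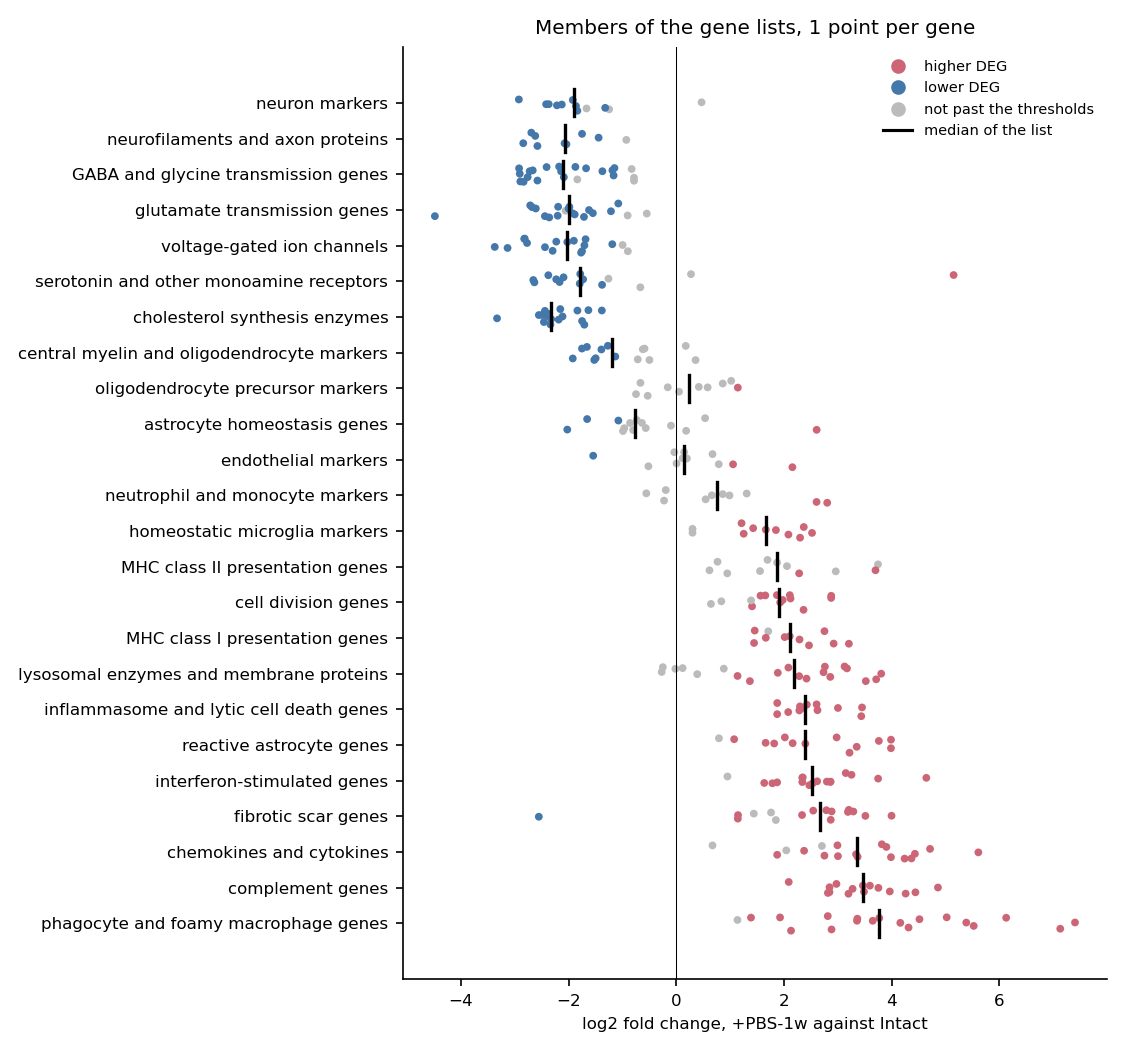
Log2 fold change of +PBS-1w against Intact for the tested members of 24 gene lists, 1 point per gene, red for higher DEGs, blue for lower DEGs and grey for genes not past the thresholds, with a black line at each list's median. The medians run from -2.32 for cholesterol synthesis enzymes to 3.77 for phagocyte and foamy macrophage genes, beside -0.007 over all genes.

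Fibrous matrix genes rose, and the count of higher DEGs depended on 1 library. Of 16 tested fibrotic scar genes, 12 rose, 1 fell and 3 did not pass (median 2.67). Col1a1, the main chain of type I collagen, was at 16.2, 139.8, 209 and 418 CPM in Intact and 1554, 1280 and 2904 CPM in +PBS-1w (log2 fold change 3.29 ± 0.68 SE, adjusted p = 3.52e-04). Every injured library was above every intact one, and Intact replicate 1 was far below the other intact libraries; without Intact replicate 4 the log2 fold change was 3.97. Postn, a matrix protein of scar fibroblasts, was at 2.4, 3.62, 9.3 and 13.8 CPM in Intact and 111, 124 and 119 CPM in +PBS-1w (log2 fold change 4.0 ± 0.59 SE, adjusted p = 9.36e-06), and Lox, which cross-links collagen, changed by 3.51 ± 0.72. Thy1, which both fibroblasts and neurons express, was the lower one (log2 fold change -2.55 ± 0.43 SE, adjusted p = 4.70e-05). Without +PBS-1w replicate 3, the library with the most Schwann cell and meningeal RNA, 6 scar genes were higher DEGs and the median was 1.93. Basement membrane and laminin genes went from 10 higher DEGs of 11 (median 1.91) to 5 (median 1.25) without that library and to 3 (median 1.27) without Intact replicate 1 as well. Col4a1, the network collagen of basement membranes, was at 63.7, 101, 86.4 and 81.5 CPM in Intact and 355, 394 and 621 CPM in +PBS-1w (log2 fold change 2.46 ± 0.26 SE, adjusted p = 1.17e-07). For the meningeal cell genes the same 2 steps left 2 and 0 higher DEGs by edgeR, against 6 with all libraries, and 5 were higher at an unadjusted p under 0.05 in both fits. Foxc1, a transcription factor of meningeal fibroblasts, was at 5.4, 17.4, 19 and 15.9 CPM in Intact and 50.2, 59.2 and 169 CPM in +PBS-1w (log2 fold change 2.68 ± 0.53 SE, adjusted p = 2.46e-04), or 1.92 without +PBS-1w replicate 3.

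**Figure D3:**
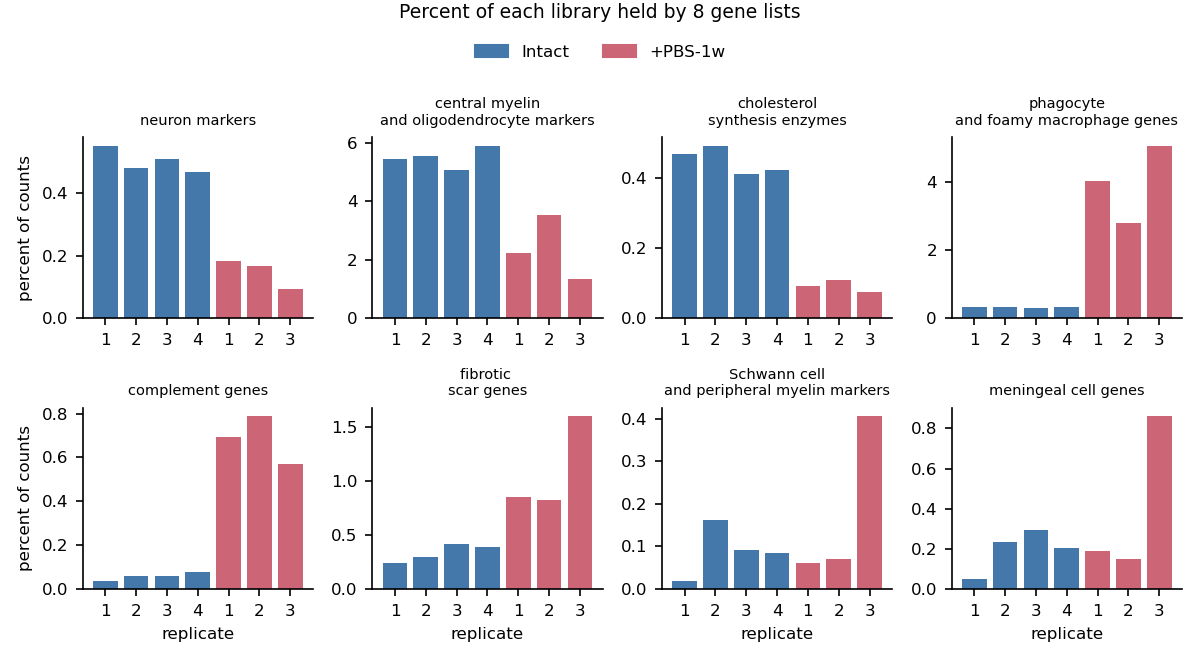
Percent of the counts of each library held by 8 gene lists, 1 bar per library, Intact replicates 1 to 4 in blue and +PBS-1w replicates 1 to 3 in red. Phagocyte, complement and cholesterol genes separate the groups in every library, while Schwann cell and meningeal genes are lowest in Intact replicate 1 and highest in +PBS-1w replicate 3.

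Genes of the proteoglycan matrix changed in both directions, and the matrix itself was not measured. Of 12 chondroitin sulfate proteoglycans and link proteins, 2 rose and 4 fell (median -0.10, or 0.17 without +PBS-1w replicate 3). Over all genes, 13.5% were higher and 12.5% lower DEGs. Acan, the proteoglycan of the nets around fast-spiking and motor neurons, was at 31.8, 31.2, 32.4 and 31.2 CPM in Intact and 5.53, 4.18 and 4.2 CPM in +PBS-1w (log2 fold change -2.77 ± 0.30 SE, adjusted p = 1.71e-07). Hapln1 and Hapln4, which link such nets to hyaluronan, changed by -3.90 ± 0.61 and -3.10 ± 0.55. Ncan, a proteoglycan of the glial scar, was at 98.4, 83.7, 77.5 and 73.3 CPM in Intact and 162, 337 and 86.1 CPM in +PBS-1w (log2 fold change 1.23 ± 0.35 SE, adjusted p = 0.00567), and did not pass without +PBS-1w replicate 2 (0.58, adjusted p = 0.156), Intact replicate 3 (0.0156) or Intact replicate 4 (0.0168). Tnc, a glycoprotein of scars and growing tissue, was at 7.04, 7.15, 9.39 and 16.4 CPM in Intact and 125, 130.3 and 153 CPM in +PBS-1w (log2 fold change 3.76 ± 0.51 SE, adjusted p = 3.55e-06). Of 13 metalloproteinases and inhibitors, 7 rose, 1 fell and 5 did not pass, and the lower one did not pass without +PBS-1w replicate 3 and Intact replicate 1. Mmp12, the elastase of macrophages, was at 0, 0, 0.0463 and 0.076 CPM in Intact and 23.2, 8.99 and 61.5 CPM in +PBS-1w (log2 fold change 9.66 ± 1.34 SE, adjusted p = 4.22e-06), and the fitted fold depends on the few counts in Intact, with 8.71 without +PBS-1w replicate 3 and 10.55 without Intact replicate 4. Of 16 genes of TGF-beta and BMP signalling, 10 rose and 6 did not pass. Tgif1, a repressor of TGF-beta target genes, was at 3.55, 4.44, 3.7 and 4.29 CPM in Intact and 22.9, 22.3 and 20.6 CPM in +PBS-1w (log2 fold change 2.45 ± 0.12 SE, adjusted p = 1.96e-11) and had the second smallest p of all higher DEGs.

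Of 11 tested endothelial markers, 2 rose, 1 fell and 8 did not pass, with a median of 0.15, beside 13.5% higher and 12.5% lower DEGs over all genes. Without +PBS-1w replicate 3 and Intact replicate 1, 1 was a higher DEG and 0 were lower by edgeR (1 lower at an unadjusted p under 0.05). Cdh5, the endothelial cadherin, was at 16.8, 29.6, 37.7 and 29.1 CPM in Intact and 71.2, 96 and 212 CPM in +PBS-1w (log2 fold change 2.16 ± 0.44 SE, adjusted p = 3.34e-04), or 1.56 without +PBS-1w replicate 3. Mfsd2a, the lipid transporter of the blood-brain barrier, was at 56, 68.1, 59 and 54 CPM in Intact and 19.5, 30.3 and 11.2 CPM in +PBS-1w (log2 fold change -1.54 ± 0.37 SE, adjusted p = 0.00127), with an adjusted p of 0.0128 without +PBS-1w replicate 3, and Tek, the endothelial receptor of angiopoietins, at 0.20 ± 0.14. Of 10 pericyte and smooth muscle markers, 2 rose, Pdgfrb, which scar fibroblasts share (log2 fold change 1.52 ± 0.31 SE, adjusted p = 2.80e-04) and which was at 0.90 without +PBS-1w replicate 3, and Anpep, a peptidase of pericytes and macrophages (log2 fold change 4.43 ± 0.51 SE, adjusted p = 3.42e-07). Rgs5, a marker of pericytes, was at -0.24 ± 0.25. Of 11 ependymal cilia genes, 1 rose, 1 fell and 9 did not pass, beside 13.5% higher and 12.5% lower DEGs over all genes. The higher one did not pass without +PBS-1w replicate 3 and the lower one not without Intact replicate 1.

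Genes of cell division rose. Of 14 tested, 11 rose and 3 did not pass. Mki67, the marker of cycling cells, was at 6.6, 8.98, 6.15 and 22.7 CPM in Intact and 64.1, 37.7 and 44.1 CPM in +PBS-1w (log2 fold change 2.12 ± 0.38 SE, adjusted p = 8.80e-05), with Intact replicate 4 above the other intact libraries, and was 2.74 without it. Top2a and Cdk1, both needed for mitosis, changed by 2.88 ± 0.43 and 2.88 ± 0.42. Of 12 iron and heme genes, 6 rose and 6 did not pass. Hmox1, which breaks down heme, was at 15.1, 13.7, 14.8 and 19.4 CPM in Intact and 285, 143 and 163 CPM in +PBS-1w (log2 fold change 3.64 ± 0.26 SE, adjusted p = 5.41e-10). Tfrc, the receptor for iron uptake, was at -0.70 ± 0.16 and under the fold threshold. Of 20 genes of energy metabolism, 2 rose, 4 fell and 14 did not pass (median -0.69), beside 13.5% higher and 12.5% lower DEGs over all genes. In every +PBS-1w library 17 of the 20 lay below Intact and 2 above, against 30.5% and 28.5% of all tested genes. Without +PBS-1w replicate 3 and Intact replicate 1, 2 were lower DEGs. Hk2, a hexokinase that proliferating and immune cells induce, changed by 2.26 ± 0.17 and Ldha, which makes lactate, by 1.25 ± 0.16, whereas Ldhb, the form that favours pyruvate, changed by -1.36 ± 0.25 and Pfkm, the muscle and brain form of phosphofructokinase, by -1.64 ± 0.24.

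Growth factors were also uneven. Of 15 tested neurotrophic factors and receptors, 5 rose, 2 fell and 8 did not pass, beside 13.5% higher and 12.5% lower DEGs over all genes. Without +PBS-1w replicate 3 there were 4 higher and 0 lower DEGs by edgeR, and without Intact replicate 1 as well 3 and 0, with 3 lower at an unadjusted p under 0.05 in both fits. Igf1, a growth factor of microglia and macrophages, was at 4.53, 7.7, 9.95 and 10.6 CPM in Intact and 133, 63.9 and 109 CPM in +PBS-1w (log2 fold change 3.63 ± 0.39 SE, adjusted p = 1.42e-07). Lif, a cytokine that activates Stat3, was at 0.382, 0.596, 0.416 and 0.57 CPM in Intact and 3.75, 5.11 and 4.56 CPM in +PBS-1w (log2 fold change 3.16 ± 0.39 SE, adjusted p = 1.09e-06). Ngfr, the low-affinity neurotrophin receptor that denervated Schwann cells express, was at 10.2, 13.1, 7.45 and 10.8 CPM in Intact and 32.7, 32.2 and 100.2 CPM in +PBS-1w (log2 fold change 2.41 ± 0.48 SE, adjusted p = 2.43e-04) and was highest in +PBS-1w replicate 3, without which it was at 1.65. Igf2, which meninges make, was at 35.9, 261, 252 and 168 CPM in Intact and 239.5, 171 and 2004 CPM in +PBS-1w (log2 fold change 2.17 ± 0.66 SE, adjusted p = 0.00882), so that +PBS-1w replicate 3 carried the mean. Without that library it was at 0.19 (adjusted p = 0.798), without Intact replicate 1 as well at -0.08, and it also missed the threshold without Intact replicate 1, 3 or 4 alone (adjusted p 0.0119 to 0.022). Bdnf, a neurotrophin of neurons, was at -0.33 ± 0.42 and did not pass. Ntrk3, a receptor of neurotrophins, was lower, at -1.0 ± 0.22, and lay at the fold threshold: it was between -0.98 and -0.85 without Intact replicate 1, 2 or 3 or +PBS-1w replicate 3.

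The same +PBS-1w libraries were set against 3 libraries taken 7 days after injury, before any injection (sub-SCI), and against 4 vehicle libraries taken 3 weeks later (+PBS-4w). These contrasts share the +PBS-1w libraries with the main one. Against sub-SCI, 9 of 17990 genes were higher DEGs (0.05%) and 19 lower DEGs (0.106%). From +PBS-1w to +PBS-4w, 1 gene was higher (0.00556%) and 6 were lower (0.0334%). Both counts depended on the method and on single libraries: without +PBS-1w replicate 2 no gene passed by edgeR in either contrast (2388 and 2417 genes at an unadjusted p under 0.05), without +PBS-1w replicate 3 there were 86 and 61, and DESeq2 called 271 and 164.

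Among the DEGs of the main comparison, Hmox1 stood at 15.8 CPM in Intact, 600 in sub-SCI, 197 in +PBS-1w and 80.3 in +PBS-4w in mean. It was lower in +PBS-1w than in sub-SCI (log2 fold change -1.61 ± 0.27 SE, adjusted p = 0.00583) and still above Intact. Dsn1 and Stil, both genes of mitosis, were at 3.17 CPM in Intact, 20.8 in sub-SCI, 8.76 in +PBS-1w and 4.44 in +PBS-4w in mean and at 2.05 CPM in Intact, 10.6 in sub-SCI, 4.31 in +PBS-1w and 2.06 in +PBS-4w in mean. Dsn1 was lower than in sub-SCI (log2 fold change -1.25 ± 0.21 SE, adjusted p = 0.00649), as was Stil (log2 fold change -1.30 ± 0.23 SE, adjusted p = 0.00757). C4a was at 0.69 CPM in Intact, 2.27 in sub-SCI, 8.52 in +PBS-1w and 6.02 in +PBS-4w in mean and was higher than in sub-SCI (log2 fold change 1.91 ± 0.29 SE, adjusted p = 0.00335). Its reads may be split with those of the near-identical C4b, so that its own level is uncertain. Negr1, a neuronal adhesion protein, was at 36.9 CPM in Intact, 4.69 in sub-SCI, 12.7 in +PBS-1w and 15.2 in +PBS-4w in mean and was likewise higher than in sub-SCI while remaining below Intact (log2 fold change 1.44 ± 0.27 SE, adjusted p = 0.0092). Towards week 4, Cd8a fell, with 0.312 CPM in Intact, 168 in sub-SCI, 94.6 in +PBS-1w and 15.1 in +PBS-4w in mean (log2 fold change -2.65 ± 0.37 SE, adjusted p = 0.00216). Sdc1, a cell surface proteoglycan, was at 3.77 CPM in Intact, 107 in sub-SCI, 44.8 in +PBS-1w and 13.3 in +PBS-4w in mean (log2 fold change -1.75 ± 0.23 SE, adjusted p = 0.00197), Cfp, the complement factor properdin, at 19.9 CPM in Intact, 81.8 in sub-SCI, 76.2 in +PBS-1w and 26.4 in +PBS-4w in mean (log2 fold change -1.53 ± 0.22 SE, adjusted p = 0.00216), and Angptl4, a lipase inhibitor, at 9.72 CPM in Intact, 73.5 in sub-SCI, 49.2 in +PBS-1w and 16.7 in +PBS-4w in mean (log2 fold change -1.56 ± 0.23 SE, adjusted p = 0.00247). Rrm2, which makes DNA precursors, was at 3 CPM in Intact, 28.8 in sub-SCI, 11.5 in +PBS-1w and 2.74 in +PBS-4w in mean (log2 fold change -2.07 ± 0.33 SE, adjusted p = 0.00616). These 5 genes were chosen as DEGs against Intact that were also lower at week 4. That they were nearer to the Intact level at week 4 than at week 1 largely follows from this choice. In the same way, the place of Hmox1 above and of Negr1 below Intact follows from their being DEGs of the main comparison.

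**Figure D4:**
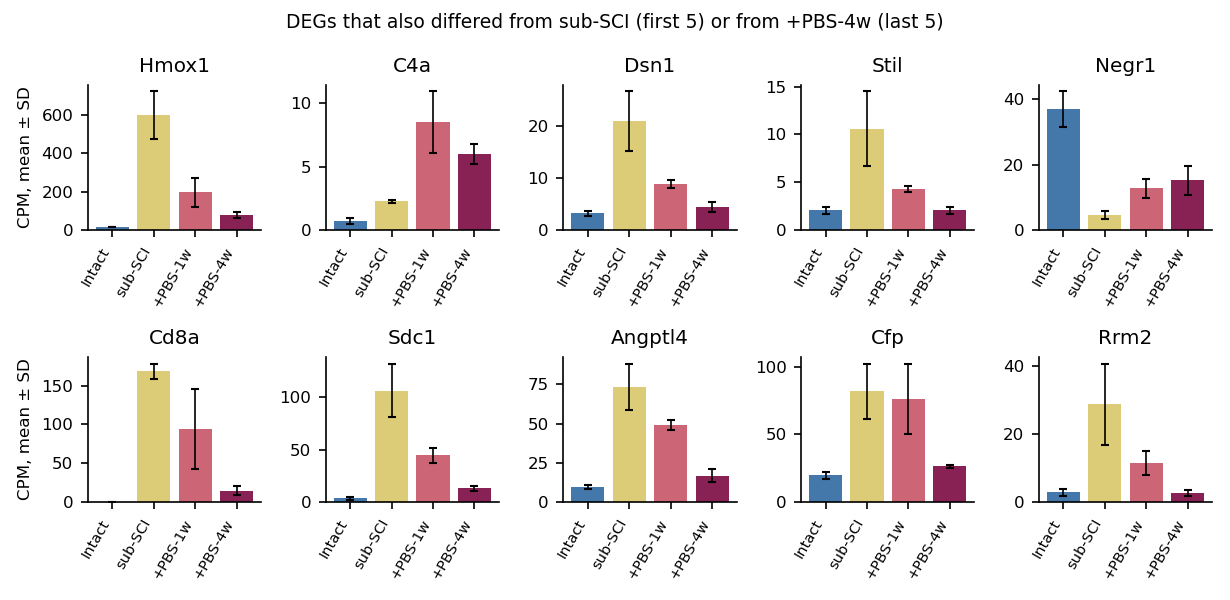
Mean level (bars, CPM) with SD (error bars) of 10 genes in Intact (n = 4), sub-SCI (n = 3), +PBS-1w (n = 3) and +PBS-4w (n = 4). In the upper row, values of +PBS-1w differ from sub-SCI (Hmox1, Dsn1 and Stil lower, C4a and Negr1 higher), and in the lower row the values of +PBS-4w are below those of +PBS-1w.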

How the data were processed

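RNA from cord tissue was sequenced after poly(A) selection as paired reads. Per the study's methods, trimming by the authors used Trim Galore 0.5.0, read pairs that mapped to human sequence were discarded, and HISAT2 2.1.0 placed the remainder on Rnor6. SAMtools 1.9 retained properly paired reads, featureCounts 1.6.4 summed them over genes, and the deposited files hold those counts as whole numbers with no scaling. The tool versions come from the submitters' processing notes. The strand setting and the annotation release are not given in the sources used here, so overlapping genes cannot be told apart.

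From these counts, 1 model of all 26 libraries with 8 groups was fitted with edgeR 4.0.16 (R 4.3.3, limma 3.58.1) after its default filter on low counts and TMM scaling, and groups were compared with the quasi-likelihood test, adjusted over all genes tested by the Benjamini-Hochberg method. RPKM values divide CPM by the gene length in the table. The steps were tested on simulated counts. No pair of libraries within Intact or +PBS-1w differed by as little as sampling noise, and every library was counted once. Deviations of same-numbered libraries were not correlated in every pair, so the numbers were not treated as pairs, although the replicate 1 libraries share a pattern across groups. DESeq2 1.42.0, other scalings and filters, a fold threshold inside the test, replicate terms and the fits without single libraries were run as alternatives. The exact permutation test on shares of counts is not printed.

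The genes described are drawn from the DEGs with the smallest p or the largest fold at a mean of at least 5 CPM, 8 in each direction, from the first and the most changed members of each gene list, and from the DEGs that also differed from sub-SCI or +PBS-4w, besides list members that did not pass. Some genes are not reported here. The members and the lists were chosen with earlier results of these data known. Promoter sequences are from RefSeq, GRCr8, a build other than that of the counts.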

Additional observations from a re-analysis of the deposited data

Results flagged for a closer look

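The highest and the lowest of the 4 Intact libraries were compared with the other three by Dixon's test for 186 described genes and 44 list shares. It singled out 13 genes and 2 shares, and chance does so in about 1 of 20 groups. Intact replicate 4 was the highest library for Acta1 at 160 CPM, Mki67 at 22.7 CPM, Mmp9 at 14.5 CPM, Jchain at 9.58 CPM and Fabp4 at 2.85 CPM, and its skeletal muscle genes held 0.045% of the counts. Intact replicate 1 was the highest for Snap25 at 1691 CPM, Pfkm at 525 CPM and Sprr1a at 0.0546 CPM, and for the respiratory chain and glycolysis genes at 0.958% of the counts, and the lowest for Pdgfrb at 34 CPM. Intact replicate 2 was the highest for Gfap at 5415 CPM and the lowest for Ctsb at 544 CPM and Penk at 98.1 CPM. Intact replicate 3 was the lowest for Apoe at 2433 CPM.

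Of the genes described, 6 differed between +PBS-1w and sub-SCI by a contrast in the same edgeR model, which is the difference of their changes from Intact. The log2 differences of +PBS-1w against sub-SCI were 1.91 for C4a, 1.44 for Negr1, -1.06 for Tfrc, -1.25 for Dsn1, -1.30 for Stil and -1.61 for Hmox1. From +PBS-1w to +PBS-4w, the log2 differences were -1.53 for Cfp, -1.56 for Angptl4, -1.75 for Sdc1, -2.07 for Rrm2 and -2.65 for Cd8a.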

How the results depend on the processing

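The comparison of +PBS-1w with Intact gave 2436 higher and 2248 lower DEGs, and 2073 to 2501 higher and 1666 to 2200 lower DEGs without 1 library. A test of the fold threshold itself (glmTreat) gave 1255 and 642, which moved the higher share of calls from 52% to 66.2%. Without both Intact replicate 1 and +PBS-1w replicate 3, a choice made after seeing the data, 1996 were higher and 1321 lower (60.2% higher). Under the other scalings, filters and tests the counts stayed within 1.5 times, and with library totals the median of all genes moved to 0.091.

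The contrast of +PBS-1w with sub-SCI, with 28 genes, was unstable: DESeq2 gave 271, no filter 17, a term for the replicate 1 libraries 52, leaving out all replicate 1 libraries 106, leaving out the 2 libraries named above 71, and leaving out 1 library 0 to 86. That of +PBS-4w with +PBS-1w, with 7 genes, gave 164, 19 with the replicate 1 term, 47 without the 2 libraries and 0 to 61 without 1 library. The fits that gave 0, by edgeR without +PBS-1w replicate 2, had 2388 and 2417 genes at an unadjusted p under 0.05. The cause was not tested.

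Libraries with the same number in Intact and +PBS-1w had deviations correlated at 0.241, 0.046 and 0.185, so the numbers are not taken as pairs. With the replicate number as a block, the main counts were 2444 and 2303, the sub-SCI contrast gave 20 and the +PBS-4w contrast 12.

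Medians of up to 1 in size changed sign under at least 1 alternative for 7 lists, among them the chondroitin sulfate proteoglycans (-0.10 to 0.17 without +PBS-1w replicate 3 and 0.25 without the 2 libraries) and the neurotrophic genes (0.06 to -0.05 and -0.12). Beyond these, the log2 fold change turned its sign for the median of the skeletal muscle genes (-3.01 to 0.2 over the fits without 1 library, 0.2 without Intact replicate 4), Acta1 (-3.63 to 0.2, likewise), Igf2 (-0.08 without the 2 libraries) and Jchain (-0.15, likewise). Among 186 described genes over all alternatives, 3220 values kept direction and side of the thresholds, 73 lost the call and 22 gained it.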

Other observations

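Genes of tissue around the cord were tested as lists of their own. Of 9 Schwann cell and peripheral myelin markers, 2 rose, Ngfr and Egr2, a factor that switches on myelin genes (log2 fold change 2.45, adjusted p = 0.00223 from edgeR), and without +PBS-1w replicate 3 there was 1 and without Intact replicate 1 as well 0 by edgeR (3 higher at an unadjusted p under 0.05). The list held 0.0192 to 0.162% of the counts in Intact and 0.0615 to 0.405% in +PBS-1w. Of 8 genes of sensory ganglia and nerve roots, 1 fell and 7 did not pass. Over all genes, 13.5% were higher and 12.5% lower DEGs. The lower gene of the nerve root list did not pass without +PBS-1w replicate 3. The list held 0.00349 to 0.1% in Intact and 0.0219 to 0.276% in +PBS-1w. Both lists were lowest in Intact replicate 1 and highest in +PBS-1w replicate 3.

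Of 6 red cell and platelet genes, Pf4, a platelet chemokine that macrophages also make, rose (log2 fold change 3.41, adjusted p = 1.0e-05 from edgeR), and Ppbp, another platelet chemokine, was at -3.88 without passing (adjusted p = 0.0356). Of 7 skeletal muscle genes, Pvalb and Tnnc2, a calcium-binding subunit of troponin, fell, the latter by 2.88 on the log2 scale (adjusted p = 2.11e-04 from edgeR). Pvalb is also a gene of fast-spiking neurons. The median of the muscle list changed sign without Intact replicate 4, as given above. Over all genes, 13.5% were higher and 12.5% lower DEGs.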
